A study of Homo sapiens with 115 samples.

Results

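The transcripts of 45 homologous recombination and Fanconi anaemia genes were followed through 5 stages of recovery from irradiation in single HCT116 cells, an established human colorectal cancer line. The members were listed by name, as genes with a known part in these 2 linked repair routes, with earlier results of these data known. They are 45 of the 43386 entries of the count table, and all 45 were among the 19894 genes that passed the filter on low counts and were tested. By role they comprised 7 genes of break sensing and checkpoint kinases, 3 of end resection, 5 of the BRCA1 and BRCA2 complexes, 9 recombinase paralogs and strand exchange partners, 8 genes of junction dissolution and resolution, 9 of the Fanconi core complex with its ubiquitin step, the FANCD2-FANCI pair, and a pair of alternative strand annealing enzymes.

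The stages were unirradiated cells on day 0 ([N], 13 cells), pre-budding radiation-tolerant persister (RTP) cells on day 7 ([P], 17 cells), budding RTP cells on day 10 ([B], 36 cells), their budded progenies on day 10 ([S], 30 cells) and repopulated cells on day 30 ([R], 19 cells). The irradiated cells had received a single 8 Gy dose. Each stage held cells of a p53−/− line (43 cells in all) and of a p53+/+ line (72 cells), each 1 clone of the same parental HCT116, so that genotype and clone cannot be told apart. The numbers of cells per line follow the labels, and the study's text gives them differently, so the line of some cells is in doubt. One p53+/+ [S] cell has a title with the letter used for [B] cells and was kept as labelled. The study describes both clones as homologous recombinant lines. Both are mismatch repair deficient colorectal cancer cells, which limits them as a model of normal tissue. Cells were picked under a microscope and amplified one by one as full-length cDNA without molecular identifiers.

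Homologous recombination repairs a broken chromosome by copying an intact sister, and therefore works mainly after DNA replication. The MRN complex (MRE11, RAD50, NBN) finds the break and activates the kinase ATM, nucleases trim the ends, and BRCA1, PALB2 and BRCA2 load the recombinase that invades the sister duplex. The joined molecules are then dissolved by the BLM helicase complex or cut by nucleases such as MUS81-EME1. The Fanconi pathway opens crosslinked DNA: its core complex and the ubiquitin-conjugating enzyme UBE2T mark the FANCD2-FANCI pair, which calls in nucleases and recombination. Many genes of both routes are known to be transcribed mostly in S and G2 phase, with the replication genes.

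Total counts ranged between 4056329 and 100173192 per cell, with a median of 34238237. All cells of 1 stage and 1 line were added up, which gave 10 sums that held between 146141551 and 891803993 counts. The line stood in as the replicate, with n = 2 sums per stage. The p-values of stage comparisons without a block therefore measure the spread between 2 clones and not between cultures. Where line and stage were both in the fit, they measure how the line difference varied between stages. Levels are given as CPM, the counts of a gene scaled to the total of its sum or cell, which do not correct for gene length and are compared here only within a gene. The deepest cell gave 8.92% to 35.3% of its sum, with the highest share in the p53+/+ [N] sum. Epithelial markers summed to 5350 to 16200 CPM, and EPCAM was at 473.7 to 825.4 CPM, while of the other epithelial markers VIL1 stayed under 1 CPM. Of 7 fibroblast and endothelial markers 6, and of 5 leukocyte markers 4, stayed under 1 CPM in every sum. The exception among the leukocyte markers was CD68, a lysosomal protein, and the leukocyte markers summed to 40.7 and 21.3 CPM in the p53−/− and p53+/+ [B] sums, against 7.45 and 8.46 CPM in the [N] sums, whose part in the results was not tested. No label says what the name prefixes of the cells stand for. [R] shared no prefix with any other stage, and [N] shared one with [P] but none with [B] or [S].

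Most of the 45 genes were at their lowest in budding RTP cells. In the p53−/− line 28 of 45 had their lowest level of the 5 stages in [B], against 16% of all genes tested, and in the p53+/+ line 34 of 45 did, against 13.3% of all genes. In both lines at once 26 members were lowest in [B], where the share of all genes was not counted. In the p53−/− line the highest level lay in [N] for 12 members (14% of all genes), in [P] for 14 (21.6%), in [B] for 1 (26.6%) and in [R] for 15 (22.3%). In the p53+/+ line it lay in [N] for 18 (16.5%), in [P] for 8 (22.9%), in [B] for 0 (17.1%) and in [R] for 18 (28%). The map of member levels shows the [B] columns as the darkest, with SLX4 as the single row that was above [N] in every later stage of both lines.

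**Figure D1:**
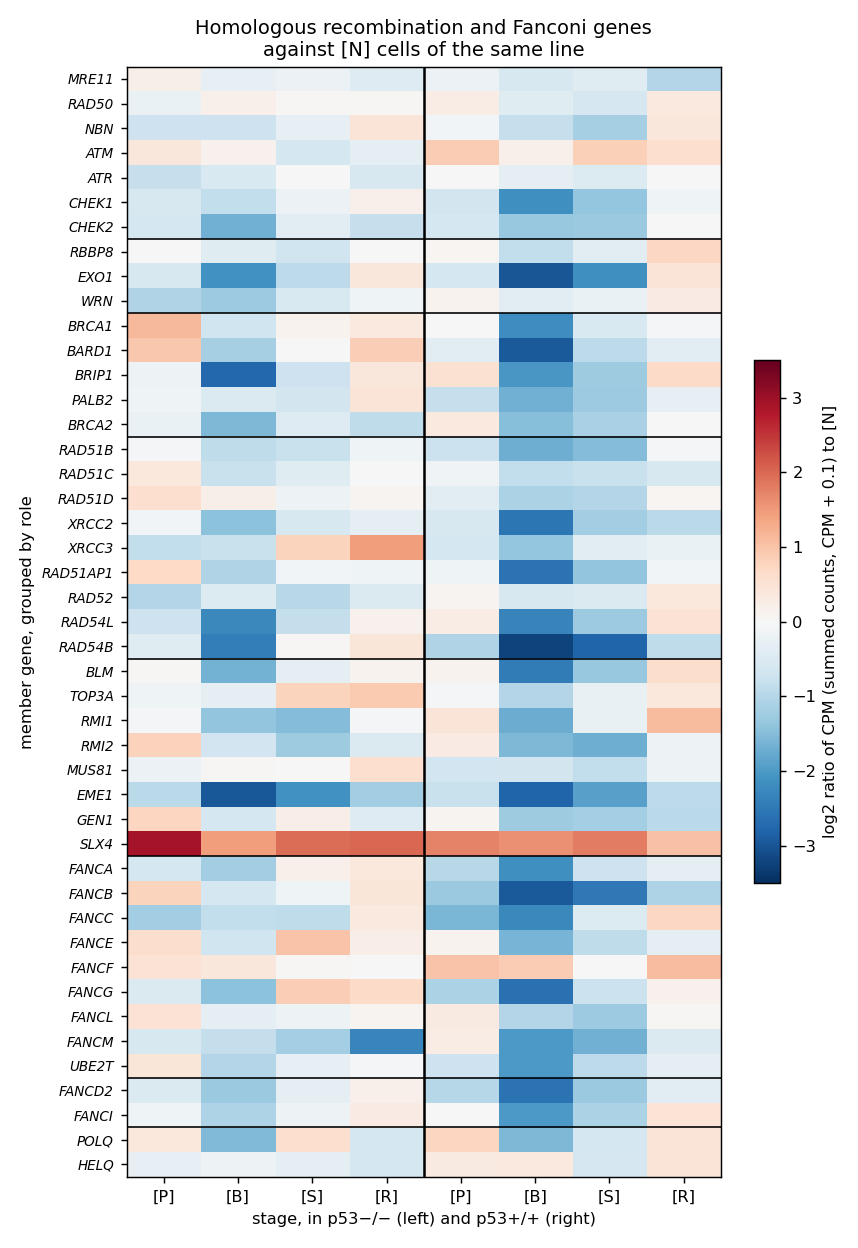
Log2 ratio of the CPM of each of the 45 members (rows, grouped by role) to [N] of the same line, in the p53−/− sums (left 4 columns) and the p53+/+ sums (right 4 columns), each sum 1 column. Blue is below and red above [N]. The [B] columns hold the lowest level of 28 p53−/− and 34 p53+/+ members.

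The same was seen cell by cell. The mean log2(CPM + 1) over the 45 members had its lowest, median and highest value at 4.10, 4.61 and 5.17 in [N], 2.44, 4.25 and 5.68 in [P], 0.70, 2.87 and 5.07 in [B], 0.59, 3.56 and 4.92 in [S], and 2.82, 4.48 and 5.19 in [R]. Below the lowest [N] cell lay 6 of 17 [P] cells, 31 of 36 [B] cells, 24 of 30 [S] cells and 5 of 19 [R] cells. All 8 p53−/− [R] cells were above it. Members with at least 1 count numbered 44 or 45 in every [N] cell, with medians of 42.5 of 45 in [B] and 41.5 in [S], and the fewest were 6 in a p53+/+ [B] cell and 11 in a p53+/+ [S] cell. After every cell was thinned to 15435056 counts, which left out 12 shallower cells, those medians were 43 and 41.5. Most members therefore remained detected in budding cells, at lower levels.

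**Figure D2:**
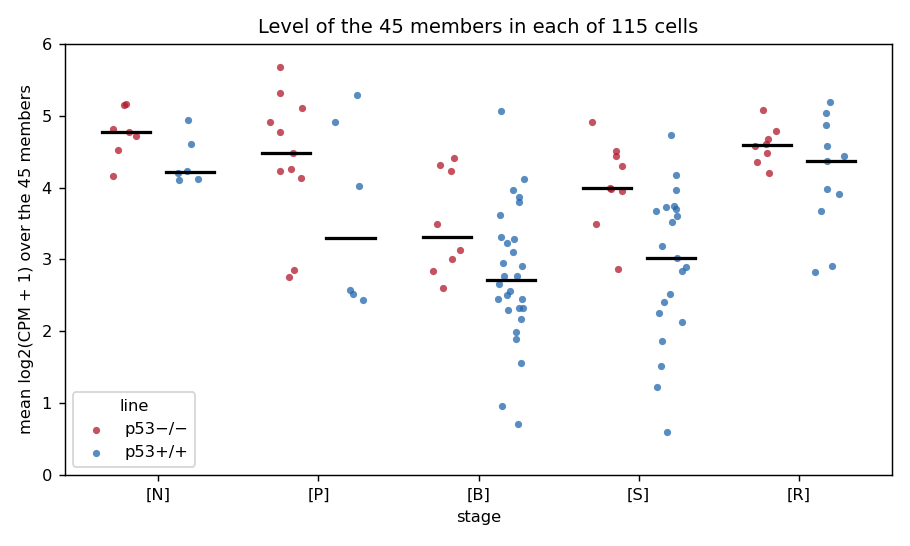
Mean log2(CPM + 1) over the 45 members in every cell (points) by stage, p53−/− on the left and p53+/+ on the right of each stage, with the median of each group as a bar. The medians are 3.31 and 2.71 in the p53−/− and p53+/+ [B] cells, against 4.78 and 4.22 in the [N] cells.

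To examine the budding state, [B] was compared with [N]. The median log2 fold change of the 45 members was -1.38, against 0.20 over all genes tested, and 42 of 45 members were below 0, against 42.8% of all genes. By edgeR 1 member fell at an adjusted p under 0.05, EME1, where 0.658% of all genes were called in either direction and 0.452% as lower. At an unadjusted p under 0.05, 29 members were lower (9.16% of all genes) and no member was higher. DESeq2 called 24 members lower (5.13% of all genes). With the line as a block edgeR called 15 members lower (2.2% of all genes). In 35 members both [B] sums lay below both [N] sums, which held for 20% of all genes. The median over cells was lower in [B] than in [N] in both lines for 37 members. For such medians over cells, here and in the comparisons below, the share of all genes was not counted. No name prefix held both [B] and [N] cells, so stage and prefix cannot be told apart here, nor in [S] versus [N].

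EME1, the partner that makes MUS81 an active nuclease for branched DNA, had 8.64 CPM in the p53−/− and 5.265 CPM in the p53+/+ [B] sum, against 67.9 and 37.6 CPM in the [N] sums. The groups did not overlap, and EME1 fell 8.27-fold (log2 fold change -3.05, standard error 0.43, adjusted p = 0.0219 from edgeR). In single p53+/+ cells EME1 was between 0 and 45.3 CPM in [B] with a median of 2.87, against 13.3 to 70.2 CPM in [N] with a median of 24. A single cell gave 65.9% of the EME1 counts of the p53+/+ [N] sum. The call was lost when either [N] sum or either [B] sum was left out, with adjusted p between 0.143 and 0.163. It was also lost with sums per name prefix (adjusted p = 0.0537 from edgeR), without the deepest p53+/+ [N] cell (0.0687) and without the deepest p53+/+ [P] cell (0.0595). Its exons overlap those of LRRC59 on the other strand, and the counting is not stated to use strand.

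EXO1, the exonuclease of long-range end resection, was at 16.2 and 6.755 CPM in the p53−/− and p53+/+ [B] sums, against 70.45 and 54.3 CPM in the [N] sums. With a standard error of 0.51, the log2 fold change of -2.59 missed the threshold in edgeR (adjusted p = 0.0525). It passed with the line as a block (adjusted p = 0.00852) and in DESeq2 (adjusted p = 3.47e-05). In both lines the [B] sum was far below the [N] sum.

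BRIP1, the helicase that binds BRCA1 and is also a Fanconi gene, had 4.27 and 3.20 CPM in the [B] sums of the p53−/− and p53+/+ lines, against 29.4 and 13.3 CPM in the [N] sums (log2 fold change -2.62, standard error 0.58, adjusted p = 0.0715 from edgeR). FANCD2, the ubiquitinated partner of FANCI in the central Fanconi pair, had 27.5 and 11.15 CPM in the [B] sums, against 67.9 and 67.5 CPM in the [N] sums (log2 fold change -1.97, adjusted p = 0.0713 from edgeR). Neither gene's groups overlapped, and both passed with the line as a block, at adjusted p = 0.0143 for BRIP1 and 0.0124 for FANCD2.

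BRCA1, the ubiquitin ligase that steers breaks into recombination, had 16.4 and 5.13 CPM in the p53−/− and p53+/+ [B] sums, against 26.5 and 23.3 CPM in the [N] sums (log2 fold change -1.38, adjusted p = 0.223 from edgeR). BRCA2, the recombinase loader, had 9.54 and 4.50 CPM in the [B] sums, against 28.8 and 12.8 CPM in the [N] sums (log2 fold change -1.70, adjusted p = 0.181 from edgeR). PALB2, which joins BRCA1 to BRCA2, had 18.2 and 9.41 CPM in the [B] sums, against 25.65 and 30.6 CPM in the [N] sums (log2 fold change -1.18, adjusted p = 0.138 from edgeR). None of the 3 passed in edgeR, although in each both [B] sums were below both [N] sums. DESeq2 called BRCA2 (adjusted p = 0.0438) and PALB2 (adjusted p = 0.0313) but not BRCA1 (adjusted p = 0.098). A single cell gave 81.5% of the PALB2 counts of the p53+/+ [N] sum. Without it that sum had 8.75 CPM, the groups overlapped, and the log2 fold change of PALB2 was -0.48 (adjusted p = 0.664 from edgeR).

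The roles differed in how far they lay from 0. The median log2 fold change of [B] over [N] was -1.77 in the FANCD2-FANCI pair, -1.70 in the BRCA1 and BRCA2 complexes, -1.57 in the Fanconi core complex, -1.47 among the recombinase paralogs and partners, -1.10 in junction dissolution and resolution, -1.03 in end resection, -0.86 in the strand annealing pair and -0.54 among the break sensors and checkpoint kinases. An unadjusted p under 0.05 was found for both genes of the FANCD2-FANCI pair, all 5 of the BRCA1 and BRCA2 complexes, 5 of 9 of the core complex, 6 of 9 paralogs and partners, 4 of 8 junction genes, all 3 of end resection, 1 of 2 annealing enzymes and 3 of 7 sensors and kinases. The difference between roles was not tested. The 3 members not below 0 were ATM, the FANCF subunit of the core complex and SLX4, a scaffold for nucleases, at log2 fold changes from 0.04 to 1.62, and these were named after their values were seen.

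**Figure D3:**
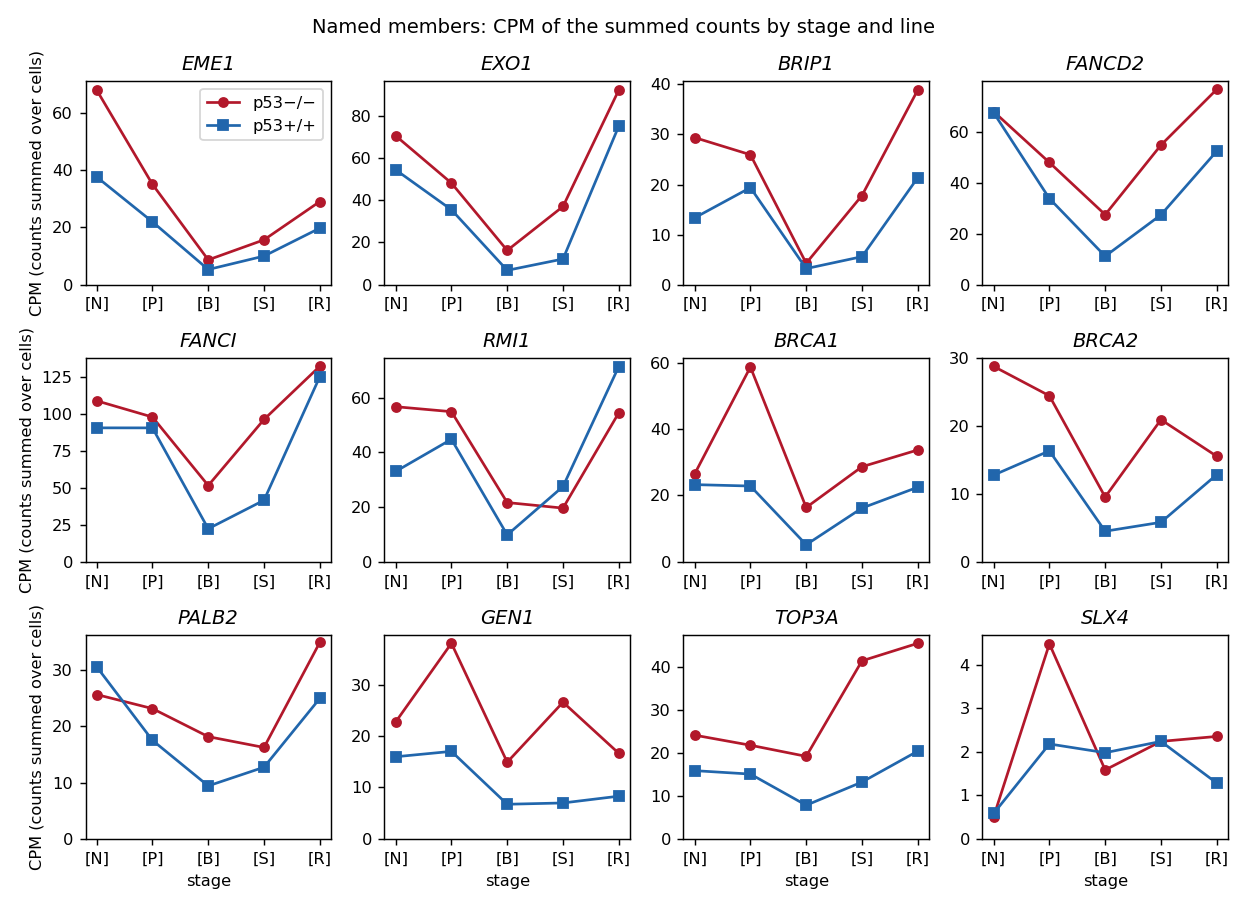
CPM of the counts summed over cells (y axis, from 0) at each stage (x axis) for 12 members, p53−/− as red circles and p53+/+ as blue squares, each point 1 sum. In EME1, EXO1, BRIP1 and FANCD2 both [B] points lie below both [N] points, and EME1 is at 8.64 and 5.265 CPM in [B].

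Since many members were low together in [B], their promoters were searched for 3 short motifs, in both orientations, in the RefSeq promoters of GRCh38.p14, which run from 250 bases before to 50 bases after each start. Promoters were found for 40 of the 45 members, 55 in all. An E2F-like motif (TTTCCCGC, TTTGGCGC, TTTCGCGC or TTTGCCGC), a type of site through which E2F factors act on genes of S phase, was present in 7 of 55 member promoters (12.7%), against 3.31% of all 35116 promoters. The CHR motif of G2 and M phase genes (TTTGAA or TTCGAA) was in 8 (14.5%, against 16.4% of all), and CCAAT in 24 (43.6%, against 34.6% of all). A match is a run of letters and not a shown site, and promoters of 1 gene overlap. The 7 genes with an E2F-like match were EXO1, GEN1, FANCD2, XRCC2, RMI1, FANCC and FANCA. Their median log2 fold change was -1.71 in [B] versus [N] and 1.73 in [R] versus [B], against -1.31 and 1.08 in the 33 other members with a promoter. The 30 bases around the match are given below for the members described in the comparisons, on the strand of the gene, 5′ to 3′, with the motif or its reverse complement in capitals.
EXO1 (chr1:241848197-241848226, plus strand): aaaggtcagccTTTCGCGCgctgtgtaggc
FANCD2 (chr3:10026424-10026453, plus strand): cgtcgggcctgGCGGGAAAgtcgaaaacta
RMI1 (chr9:83980762-83980791, plus strand): ggcgcgagcgcGCGGCAAAtcgggcgggaa
GEN1 (chr2:17753859-17753888, plus strand): cagttgcggggTTTCGCGCcgccggagtct
FANCA (chr16:89816801-89816830, minus strand): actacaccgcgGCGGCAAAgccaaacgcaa
FANCC (chr9:95317737-95317766, minus strand): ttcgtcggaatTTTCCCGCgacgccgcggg
In EXO1 and GEN1 the match begins at or just after the annotated start, in FANCD2 it spans it, and in RMI1, FANCC and FANCA it lies before it. FANCC held another E2F-like match, not shown, whose first base lay at -172 from the start. EXO1, FANCD2 and RMI1, whose matches are shown, were among the 4 members with the smallest p in [B] versus [N] or in [R] versus [B]. FANCA, FANCC, XRCC2 and GEN1, also with a match, were not, and GEN1 had log2 fold changes of -0.98 and 0.19 there. BRIP1 was among those 4 in both comparisons and had a CHR and a CCAAT match but no E2F-like match. EME1 in [B] versus [N] and FANCI in [R] versus [B] were also among those 4. For neither was a match to any of the 3 motifs found. Promoters were found for 40 of the 45 members only, and whether EME1 and FANCI were among the 40 is not given here. A link between the motif and the changes was not tested.

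The pre-budding stage was compared with unirradiated cells. In [P] versus [N] the median log2 fold change of the members was -0.21, against 0.15 over all genes, and 33 of 45 were below 0. No member was called by edgeR, which called 0.0201% of all genes in either direction and 0.00503% as lower, and none with the line as a block (0.0101% of all genes lower). At an unadjusted p under 0.05, 2 members were lower (4.9% of all genes) and 1 higher (7.01%). By DESeq2 FANCC was called lower, as 1.26% of all genes were, and SLX4 higher, where 4.02% of all genes were called in either direction. In 15 members both [P] sums lay below both [N] sums (15.3% of all genes), and in 6 once the deepest p53+/+ [N] cell was left out. For the latter the share of all genes was not counted. In the 2 lines the members' median within the 1 name prefix that held both stages was -0.33 in p53−/− and -0.51 in p53+/+ cells, against 0.16 and 0.51 over all genes.

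The p53+/+ [P] sum leaned on 1 cell, which gave 32.2% of all its counts, 57.5% of its EME1 counts and 60.2% of its EXO1 counts. Without that cell the median log2 fold change of the members was -0.41. The medians over p53+/+ cells were 2.41 CPM of EME1 and 10.1 CPM of EXO1 in [P], against 24 and 41.2 CPM in [N], and 4 of these 6 [P] cells lay below the lowest [N] cell on the mean over members.

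SLX4 had 4.48 and 2.18 CPM in the p53−/− and p53+/+ [P] sums, against 0.505 and 0.582 CPM in the [N] sums (log2 fold change 2.46, standard error 0.79, adjusted p = 0.325 from edgeR and 0.0136 from DESeq2). It had a count in 15 of 17 [P] cells and 10 of 13 [N] cells, at low levels in both. FANCC, a core complex subunit, had 5.415 and 3.795 CPM in the [P] sums, against 12.6 and 11.7 CPM in the [N] sums (log2 fold change -1.55, adjusted p = 0.326 from edgeR and 0.0495 from DESeq2). The groups did not overlap in either gene. EME1 and FANCD2 completed the 4 members with the smallest p, at log2 fold changes of -1.03 and -0.88. The p53−/− and p53+/+ [P] sums had 35 and 21.9 CPM of EME1, and 47.9 and 33.8 CPM of FANCD2. Without the deepest p53+/+ [N] cell, that [N] sum had 19.83 CPM of EME1 and 40.33 CPM of FANCD2, so the groups overlapped in both. BRCA1 differed in sign between the lines, with 58.8 and 22.85 CPM in the p53−/− and p53+/+ [P] sums, against 26.5 and 23.3 CPM in the [N] sums, and a single cell gave 38.3% of its counts in the p53−/− [P] sum. The log2 fold changes of PALB2 and BRCA2 were -0.62 and -0.16. With library size as the only scaling, the log2 fold change of all genes moved up by 0.14 at the median and 25 members instead of 33 were below 0.

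[B] was then compared with [P], the stage before it. The median log2 fold change of the members was -0.94, against 0.02 over all genes, and 43 of 45 members were below 0, against 49.0% of all genes. By edgeR 0 members and 0.0% of all genes were called. At an unadjusted p under 0.05, 20 members were lower (3.23% of all genes), DESeq2 called 6 members (0.407% of all genes), the block called 0 (0.0101% of all genes), and in 30 members the [B] sums lay below both [P] sums (18.3% of all genes). The 2 members above 0, HELQ and MUS81, named after their values were seen, had log2 fold changes of 0.11 and 0.17.

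EME1 had 8.64 and 5.265 CPM in the p53−/− and p53+/+ [B] sums, against 35 and 21.9 CPM in the [P] sums (log2 fold change -2.02, adjusted p = 0.400 from edgeR and 0.00148 from DESeq2). Over p53+/+ cells, however, the median of EME1 was 2.87 CPM in [B] and 2.41 CPM in [P], and 1 cell gave 57.5% of the counts of the p53+/+ [P] sum. BRIP1 had 4.27 and 3.20 CPM in [B], against 25.95 and 19.4 CPM in [P] (log2 fold change -2.57). RMI1 and RMI2, the small subunits of the BLM complex, had log2 fold changes of -1.67 and -1.63, with 21.65 and 9.81 CPM of RMI1 in [B] against 54.9 and 44.8 CPM in [P]. None of these groups of sums overlapped. Without the deepest p53+/+ [P] cell that sum had 13.74 CPM of EME1 and 12.45 CPM of BRIP1, and 23 members instead of 30 did not overlap. The share of all genes without that cell was not counted. The median over cells was lower in [B] than in [P] in both lines for 39 members. BRCA1, BRCA2 and PALB2 had log2 fold changes of -1.94, -1.54 and -0.56, and in PALB2 the groups overlapped. Within the 2 name prefixes that held [B] and [P] cells, both p53−/− with 1 [B] cell each, the median over members was -2.33 and -0.61, against -1.62 and -0.14 over all genes.

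The budded progenies stood between [B] and [N]. In [S] versus [B] the median log2 fold change of the members was 0.84, against 0.01 over all genes, and 38 of 45 members were above 0, against 50.4% of all genes. By edgeR 0 members and 0.0% of all genes were called, 15 members were higher at an unadjusted p under 0.05 (2.65% of all genes), with 1 DESeq2 call, FANCG (0.141% of all genes). In 12 members both [S] sums lay above both [B] sums (10.3% of all genes). By line the members' median was 0.92 for p53−/− cells and 0.56 for p53+/+ cells. The median over cells was higher in [S] than in [B] for 32 of 45 members in p53−/− and 25 in p53+/+ cells. In both lines at once it was higher for 20 members, so the rise in the sums was often not seen in the typical cell. Across 11 pairs of [S] and [B] sums of the same line and name prefix, the median over members was above 0 in 8 and ranged from -0.85 to 2.23, while that over all genes ranged from -1.14 to 0.57, so the difference did not hold within every prefix.

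FANCG, a core complex subunit, had 57.3 and 17.3 CPM in the p53−/− and p53+/+ [S] sums, against 11.5 and 4.72 CPM in the [B] sums (log2 fold change 2.33, standard error 0.56, adjusted p = 1.0 from edgeR and 0.0191 from DESeq2). A single cell gave 40.6% of its counts in the p53−/− [S] sum. POLQ, the polymerase of microhomology-mediated end joining, had 21.8 and 5.64 CPM in [S], against 4.85 and 2.87 CPM in [B], and its counts came from 13 of 21 p53+/+ [S] cells. FANCA, another core subunit, had 63.2 and 28.1 CPM in [S], against 24.35 and 10.5 CPM in [B], and BRIP1 had 17.8 and 5.585 CPM in [S]. In all 4 genes the groups of sums did not overlap. The [S] cell whose title has the letter of [B] cells gave 37.6% of the p53+/+ BRIP1 counts. Without it that sum had 3.72 CPM, so that BRIP1 overlapped, and 10 members instead of 12 did not overlap. No share of all genes was counted without this cell. Over p53+/+ cells the median of BRIP1 was 1.03 CPM in [S] and 1.68 CPM in [B]. BRCA1, BRCA2 and PALB2 had log2 fold changes of 1.23, 1.05 and 0.23, with overlapping groups in each.

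Set against unirradiated cells, the progenies were lower. The members' median in [S] versus [N] was a log2 fold change of -0.58, against 0.15 over all genes, and 37 of 45 members were below 0. The p53+/+ median was -0.86 and the p53−/− median -0.31, a difference between lines that was not tested. By edgeR 0 members were called (0.0704% of all genes), 5 members were lower (5.49% of all genes) and 1 higher (7.84%) at an unadjusted p under 0.05. DESeq2 gave 2 members as lower (1.54% of all genes), EME1 and RMI2, and SLX4 higher, where 4.83% of all genes were called in either direction. With the line as a block edgeR called 1 member lower (0.0201% of all genes), and in 22 members both [S] sums lay below both [N] sums (20.2% of all genes). EME1 had 15.6 and 9.96 CPM in the p53−/− and p53+/+ [S] sums, against 67.9 and 37.6 CPM in the [N] sums (log2 fold change -2.03, adjusted p = 0.196 from edgeR, and 0.0348 with the line as a block). RMI2 had 8.05 and 6.36 CPM in [S], against 19.2 and 21.2 CPM in [N] (log2 fold change -1.48). EXO1 and SLX4 had log2 fold changes of -1.36 and 2.06, and BRCA1, BRCA2 and PALB2 of -0.15, -0.65 and -0.95.

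In repopulated cells most members lay above their level in budding cells. In [R] versus [B] the median log2 fold change was 1.22, against -0.14 over all genes, and 39 of 45 members were above 0, against 44.6% of all genes. By edgeR 0 members passed the adjusted threshold (0.281% of all genes were called in either direction and 0.116% as higher), with a smallest adjusted p of 0.0551, and 25 members were higher at an unadjusted p under 0.05 (9.03% of all genes). DESeq2 called 17 members higher (4.66% of all genes). With the line as a block edgeR called 12 members higher (1.81% of all genes). In 32 members both [R] sums lay above both [B] sums (23.5% of all genes). The 6 members not above 0 ranged from -0.31 to -0.05. All [R] cells carry name prefixes of their own, so stage and prefix cannot be told apart in this comparison.

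EXO1 had 92.1 and 75 CPM in the p53−/− and p53+/+ [R] sums, against 16.2 and 6.755 CPM in the [B] sums (log2 fold change 2.86, standard error 0.51, adjusted p = 0.0551 from edgeR, and 0.0137 with the line as a block). BRIP1 had 38.9 and 21.4 CPM in [R], against 4.27 and 3.20 CPM in [B] (log2 fold change 2.97, adjusted p = 0.063 from edgeR, and 0.0171 with the line as a block). These levels were the highest of the 5 stages in each line for both genes.

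RMI1 had 54.5 and 71.4 CPM in the p53−/− and p53+/+ [R] sums, against 21.65 and 9.81 CPM in the [B] sums (log2 fold change 1.99, adjusted p = 0.0664 from edgeR, and 0.0373 with the line as a block). FANCI, the partner of FANCD2, had 132.4 and 125.3 CPM in [R], against 51.6 and 22.3 CPM in [B] (log2 fold change 1.79, adjusted p = 0.0746 from edgeR, and 0.0274 with the line as a block). BRCA1 had 33.75 and 22.5 CPM in [R], BRCA2 15.55 and 12.8 CPM, and PALB2 34.9 and 24.96 CPM, for log2 fold changes over [B] of 1.39, 1.00 and 1.10. In each of these 5 genes both [R] sums were above both [B] sums. A single cell gave 56.3% of the PALB2 counts of the p53−/− [R] sum. Another cell gave 36.6% of the BRCA2 counts of the p53+/+ [R] sum. The separation of the sums in PALB2 and BRCA2 may rest on these cells, which was not tested.

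[R] was also compared with the budded progenies. In [R] versus [S] the median log2 fold change was 0.41, against -0.08 over all genes, and 35 of 45 members were above 0. By edgeR 0 members were called (0.0201% of all genes), 6 were higher at an unadjusted p under 0.05 (6.11% of all genes). DESeq2 gave 1 call, EXO1 (2.23% of all genes). The block called 0 (0.0251% of all genes), and in 17 members both [R] sums lay above both [S] sums (25% of all genes). EXO1 had 92.1 and 75 CPM in the p53−/− and p53+/+ [R] sums, against 37 and 12.1 CPM in the [S] sums (log2 fold change 1.63, adjusted p = 0.188 from edgeR). NBN, the adaptor subunit of the MRN complex, had 118.4 and 115.2 CPM in [R], against 70.5 and 38.9 CPM in [S] (log2 fold change 0.94), and RMI1 and RMI2 had log2 fold changes of 1.22 and 0.99. The groups did not overlap in these 4 genes. BRCA1, BRCA2 and PALB2 had log2 fold changes of 0.16, -0.05 and 0.87.

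The members' median in [R] versus [N] was a log2 fold change of -0.09, against 0.02 over all genes, with 27 members below 0 and 18 above. By edgeR and by DESeq2 0 members were called, where edgeR called 0.0% of all genes, with or without the block, and DESeq2 called 0.9% as lower. In 6 members both [R] sums lay below both [N] sums (15.5% of all genes), and in 9 both lay above (24.1% of all genes). At an unadjusted p under 0.05, 1 member was lower, EME1, and no member was higher, against 4.13% and 4.47% of all genes. EME1 had 29 and 19.7 CPM in the p53−/− and p53+/+ [R] sums, against 67.9 and 37.6 CPM in the [N] sums (log2 fold change -1.27, standard error 0.41, adjusted p = 0.563 from edgeR). FANCM, a DNA translocase that anchors the core complex, had 3.76 and 6.36 CPM in [R], against 19.05 and 8.99 CPM in [N], and MRE11, the nuclease of the MRN complex, had 11.3 and 6.51 CPM in [R], against 15.4 and 13.3 CPM in [N]. Without the deepest p53+/+ [N] cell, that [N] sum had 19.83 CPM of EME1, level with the p53+/+ [R] sum. It then had 4.65 CPM of FANCM, below the p53+/+ [R] sum, and 11.26 CPM of MRE11, still above it. SLX4 was at 2.35 and 1.28 CPM in [R]. The log2 fold changes of BRCA1, BRCA2 and PALB2 were 0.02, -0.70 and -0.08. These differences did not pass in either tool, and with library size as the only scaling the median of the members turned to 0.08, as that of all genes moved up by 0.16. It turned to 0.04 without the deepest p53+/+ [N] cell. A p that misses the threshold does not show equal levels.

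The p53−/− line held more transcript of most members than the p53+/+ line. With the stages as blocks the median log2 fold change was 0.52, against -0.005 over all genes, and 36 of 45 members were above 0, against 49.7% of all genes. By edgeR 0 members were called (0.206% of all genes were called in either direction and 0.0804% as higher), 22 were higher at an unadjusted p under 0.05 (6.91% of all genes). DESeq2 gave 14 calls (4.1% of all genes). In 22 members the p53−/− sum was the higher one in every stage, which held for 9.69% of all genes. By stage, from [N] through [P], [B] and [S] to [R], the members' median difference was 0.12, 0.37, 0.65, 0.83 and 0.30, against -0.05 to 0.05 over all genes. Whether it differed between stages was not tested. The p-values between lines do not measure the spread between clones, as each genotype was 1 clone.

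GEN1, a nuclease that cuts crossed DNA junctions, had 22.8, 38.1, 14.9, 26.6 and 16.7 CPM in the p53−/− sums of [N], [P], [B], [S] and [R], against 16, 17, 6.73, 6.98 and 8.31 CPM in the p53+/+ sums (log2 fold change 1.04, standard error 0.23, adjusted p = 0.0951 from edgeR and 0.00171 from DESeq2). TOP3A, the topoisomerase of the BLM complex, had 24.15, 21.8, 19.2, 41.5 and 45.55 CPM in the p53−/− sums, against 15.9, 15.1, 7.82, 13.2 and 20.4 CPM in the p53+/+ sums (log2 fold change 0.94, adjusted p = 0.0951 from edgeR). Both genes were higher in the p53−/− line in 5 of 5 stages. The same single cell gave 48.1% of the GEN1 and 49.4% of the TOP3A counts of the p53−/− [S] sum. In other p53−/− sums 1 cell gave 43.8% of GEN1 in [P], 45% of GEN1 in [B] and 46.3% of TOP3A in [N]. Over p53−/− and p53+/+ [S] cells the medians were 16.6 and 5.7 CPM of GEN1, and 22.3 and 10.9 CPM of TOP3A.

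RAD51AP1, which stimulates strand invasion, had 80.6, 131.9, 38.5, 74.9 and 72.2 CPM in the p53−/− sums, against 60.3, 54.2, 9.905, 23.3 and 56.2 CPM in the p53+/+ sums (log2 fold change 1.03, adjusted p = 0.106 from edgeR). RAD54L, a motor protein of strand exchange, had a log2 fold change of 0.95 (adjusted p = 0.108 from edgeR), and like BRCA1 (0.82) and BRCA2 (0.88) it was higher in 5 of 5 stages. PALB2 was higher in 4 of 5 stages (log2 fold change 0.28). Beside this, proliferation markers were also higher in the p53−/− line, with 20 of 22 above 0 and a median log2 fold change of 0.28, and their part in the result was not tested.

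Markers of proliferation and of the S and G2 phases moved with the members. Over 22 such markers, none of them a member, the median log2 fold change was -2.18 in [B] versus [N], with 12 called lower by edgeR, among them CCNE2, MCM4, GINS2 and CCNB1. It was -1.26 in [B] versus [P], 1.28 in [S] versus [B], 1.97 in [R] versus [B], with 5 called higher, and -0.12 in [R] versus [N]. The markers summed to 1940 and 1490 CPM in the p53−/− and p53+/+ [B] sums, against 7230 and 6150 CPM in the [N] sums. MKI67, the Ki-67 antigen, was at 149.8 and 42.0 CPM in [B], against 268.6 and 179.3 CPM in [N] (log2 fold change -1.39, adjusted p = 0.216 from edgeR). The share of cells in cycle and the transcript content per cycling cell cannot be told apart in summed counts.

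**Figure D4:**
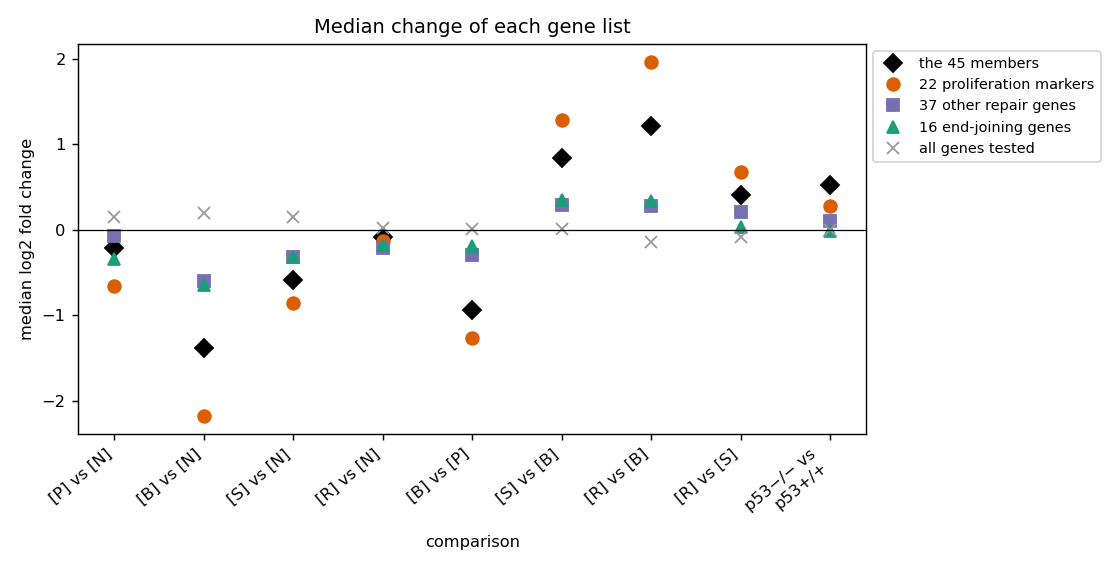
Median log2 fold change (y axis) in each comparison (x axis) of the 45 members (black diamonds), 22 proliferation markers (orange circles), 37 other recombination and Fanconi genes (violet squares), 16 end-joining genes (green triangles) and all 19894 genes tested (grey crosses). In [B] versus [N] the members are at -1.38 and the proliferation markers at -2.18.

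Per cell, the mean level of the members and that of the proliferation markers correlated at Pearson's r = 0.90 across all 43 p53−/− and 72 p53+/+ cells, which share the normalization to CPM, and that of the members and the total count at 0.12. Within a stage and line the correlation with the markers was 0.82 in 6 p53+/+ [N] cells, 0.99 in 6 p53+/+ [P] cells, 0.87 in 28 p53+/+ [B] cells, 0.83 in 21 p53+/+ [S] cells and 0.94 in 11 p53+/+ [R] cells. In p53−/− cells it was 0.68, 0.83, 0.85, 0.08 and 0.33 in the same order of stages, over 7 to 11 cells. The 6 p53+/+ [P] cells had member means of 2.44, 2.52, 2.57, 4.02, 4.91 and 5.28, and in the same order of cells marker means of 3.44, 3.19, 3.01, 5.77, 8.03 and 7.92.

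**Figure D5:**
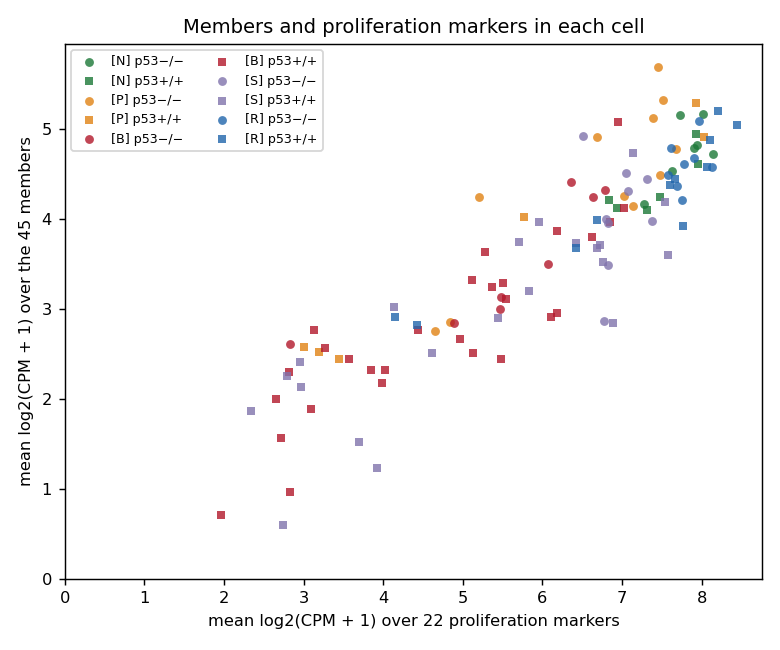
Mean log2(CPM + 1) over the 45 members (y axis) against that over 22 proliferation markers (x axis) in every cell, coloured by stage, p53−/− as circles and p53+/+ as squares. The points run along 1 diagonal (r = 0.90), with [N] and most [R] cells at its upper end and most [B] cells lower down.

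The members did not share this equally. After the mean of its stage and line was taken from each cell, a member's level correlated with the mean of the other members at 0.15 to 0.76 (median 0.60 over 45 members, all cells). Among the members named in every comparison, BRCA1 reached 0.76 and BRCA2 0.74, and PALB2 0.38. EXO1 was at 0.73, FANCD2 at 0.73 and EME1 at 0.72, and these 3 correlated with the proliferation markers at 0.82, 0.81 and 0.75. The lowest values were those of FANCF (0.15), MUS81 (0.24) and RAD51B (0.25), the last 3 named after their values were seen.

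Other repair genes were counted beside the members. Of 37 other homologous recombination and Fanconi genes, 2 were called in [B] versus [N], PSMC3IP, a recombinase accessory factor (log2 fold change -2.19, adjusted p = 0.0457 from edgeR), and RPA1, the large subunit of the single-strand binding complex (log2 fold change -1.45, adjusted p = 0.0462 from edgeR), both lower. The median of that list was -0.59 in [B] versus [N] and 0.28 in [R] versus [B]. Of 16 genes of non-homologous end joining, the route that rejoins ends without a template, 0 were called by edgeR in any comparison, 7 were lower and 1 higher in [B] versus [N] at an unadjusted p under 0.05, and the median log2 fold change was -0.64 there and 0.34 in [R] versus [B]. The difference between these lists and the members was not tested.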

How the data were processed

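Single HCT116 cells were picked and their full-length cDNA was sequenced. For the deposited table of raw counts (1 column per cell), the authors cleaned reads with fastp and used HISAT2 2.0, GRCh38 and StringTie. The tool that made the counts is not given in the sources used here. The labels give 8 Gy for [N] cells too, which the methods call unirradiated.

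Counts were summed per stage and line and fitted with edgeR 4.0.16 (TMM, robust quasi-likelihood, R 4.3.3) after filterByExpr at a minimum count of 10 and a count in at least 12 cells, with Benjamini-Hochberg adjustment over all 19894 genes. Stages were compared without a block, and lines with the stages as blocks. Same-numbered sums come from the same line, and the line differences of any 2 stages correlated at 0.074 to 0.216 (10 of 10 above 0). Alternatives were the line as a block, DESeq2 1.42.0, library size alone, no filter, thinned cells, 40 sums per name prefix, cells left out and each sum left out. Leaving out the deepest p53+/+ [P] or [N] cell was chosen after seeing the data. Both tools were tested on simulated data, where DESeq2 made more false calls than edgeR. Apart from genes set to change, the simulated sums were drawn independently around a shared mean per gene. No simulated sum was led by a single cell, so the simulation does not show how the tools rank on these data. Of the 45 members, 29 share exonic bases with another annotated gene, and the counting is not stated to use strand, so their counts may include such reads.

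A check of the line labels is not reported here. The members and lists were chosen with earlier results of these data known. Named were BRCA1, BRCA2 and PALB2 in every comparison, members called, the 4 members with the smallest p, and called genes of other lists, at most 4 each. Python 3.11.15 made summaries and figures.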

Additional observations from a re-analysis of the deposited data

Results flagged for a closer look

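Within each stage and line of 4 to 10 cells, the lowest or highest cell was set against its nearest neighbour by Dixon's test for 22 named genes and the summary values. It stood apart in 14 of 144 groups, and chance flags about 1 in 20. On the log2(CPM + 1) scale PALB2 was at 6.16 in 1 p53+/+ [N] cell, with the next at 3.63, and the same cell had RMI2 at 2.64, with the next at 4.48. This cell is the deepest of its group and gave 35.3% of the sum. BRCA2 was at 0.40 in another p53+/+ [N] cell, with the next at 3.28.

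Among p53−/− [N] cells, 1 cell had a count for 44 members where the others had 45, and it also had TOP3A at 5.77, with the next at 4.4. FANCC was at 1.53 in 1 cell, with the next at 3.35, and RMI2 at 5.25 in 1 cell, with the next at 4.22.

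Among p53−/− [S] cells, NBN was at 0.0 in 1 cell, with the next at 4.95, and the same cell had RAD51AP1 at 3.07, with the next at 5.53. BRCA1 was at 0.46 in 1 cell, with the next at 3.70, RMI1 at 0.08, with the next at 3.23, and FANCA at 3.81, with the next at 5.48. BRCA1 was at 0.0 in 1 p53−/− [B] cell, with the next at 3.30, and RAD51AP1 at 5.05 in 1 p53−/− [R] cell, with the next at 5.99.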

How the results depend on the processing

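The line as a block called 15 members in [B] versus [N], 1 in [S] versus [N] and 12 in [R] versus [B]. DESeq2 called 24 members in [B] versus [N], 2 for [P] and 3 for [S] against [N], 6 for [B] against [P], 1 for [S] and 17 for [R] against [B], 1 for [R] against [S] and 14 between lines. Without the filter, where 33896 genes were tested, 19 members were called for [B] (3.76% of all genes) and 1 for [S] (1.55%) against [N]. In that setting 12 were called for [B] against [P] (0.549%), 2 for [S] (0.292%) and 16 for [R] (3.65%) against [B]. For [R] against [S] there was 1 (2.07%), and between lines there were 2 (1.22%). Thinned cells gave 2 in [B] versus [N] (0.475% of all genes) and 1 in [R] versus [B] (0.33%). The same came without the 4 cells (1 [B], 3 [S]) of 1 name prefix that the study leaves out of its tables against [N]. Without those 4 cells 0.98% and 0.477% of all genes were called. Sums per name prefix gave 1 in [B] versus [N] (0.701% of all genes), which was RAD54B and not EME1. They gave 1 in [S] versus [B] (0.777%) and 4 between lines (6.47%). Without the deepest p53+/+ [P] or [N] cell, chosen after seeing the data, 0 were called in [B] versus [N]. In these settings 0.181% and 0.241% of all genes were called. Without the stages as blocks 0 were called between lines (0.00503% of all genes). The cause of these changes was not tested.

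The median over members in [P] versus [N] was -0.25 with the block, -0.05 with library size alone, -0.16 without the filter, -0.37 with thinned cells and -0.11 with prefix sums. Without the deepest p53+/+ [P] cell it was -0.41, and without the deepest p53+/+ [N] cell -0.16, where that of [R] versus [N] was 0.04. With library size alone it was 0.08 in [R] versus [N]. With prefix sums it was 0.45 in [S] versus [B] and 0.89 in [R] versus [B]. Without the deepest p53+/+ [N] cell PALB2 turned to 0.07 in [P] versus [N] and 0.62 in [R] versus [N]. Other genes that turned were BRCA2 in [P] versus [N] (0.01, prefix sums), BRCA1 in [R] versus [N] (-0.05, block), PALB2 in [R] versus [N] (0.09, library size) and in [S] versus [B] (-0.05, prefix sums), and BRCA2 in [R] versus [S] (0.16 block, 0.09 library size, 0.02 prefix sums).

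With each sum left out in turn, the stage it came from kept a single sum, so only effect sizes are given here. The median over members ranged from -1.57 to -1.06 in [B] versus [N], and against [N] from -0.42 to -0.09 for [P], -0.88 to -0.25 for [S] and -0.25 to 0.00 for [R]. It ranged from -1.48 to -0.76 in [B] versus [P], 0.33 to 1.34 in [S] versus [B], 0.84 to 1.5 in [R] versus [B], 0.08 to 0.92 in [R] versus [S] and 0.42 to 0.57 between lines. BRCA1 ranged from -0.20 to 1.08 in [P] versus [N], -0.51 to 0.11 in [S] versus [N], -0.29 to 0.26 in [R] versus [N] and -0.14 to 0.53 in [R] versus [S]. BRCA2 ranged from -0.55 to 0.49 in [P] versus [N], -1.72 to 0.00 in [S] versus [N], -0.02 to 1.62 in [S] versus [B] and -0.62 to 1.02 in [R] versus [S]. PALB2 ranged from -0.32 to 0.17 in [R] versus [N] and -0.11 to 0.62 in [S] versus [B]. With 2 sums per stage, no molecular identifiers and some sums led by a single cell, small differences were not detectable.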
